A study of Homo sapiens with 131 samples.

Results

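Solute carriers are membrane transporters that move amino acids, sugars, ions, metals, vitamins and metabolites across the plasma membrane and the membranes of mitochondria, lysosomes and the secretory pathway. Genes of the family were taken from the table of the LSM14A-ADAR2dd fusion by their names, and those with at least 100 reads in each of its 4 libraries were kept, which gave 167 of the 205 solute carrier names listed there and of 11312 genes in all. The genes were thus chosen by their names and by the read counts of those 4 libraries. The 4 genes just inside the threshold were SLC25A51 with a lowest count of 101 reads, SLC66A3 with 105, and SLC29A3 and SLC2A12 with 106 each. The 4 just outside it were SLC10A7 with 98, SLC25A35 with 97, SLC35E3 with 95 and SLC25A14 with 90. By the substrate of their family the 167 genes fell into 32 mitochondrial carriers, 26 amino acid transporters, 24 metal ion transporters, 22 transporters of inorganic ions and acid, 18 of nucleotide sugars and the secretory pathway, 14 of sugars and inositol, 11 of carboxylates and organic ions, and 20 of vitamins, nucleosides, lipids and other substrates.

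P-bodies are cytoplasmic granules that hold translationally repressed mRNAs with the RNA helicase DDX6, the scaffold protein LSM14A and decapping factors. An RNA deaminase fused to such a protein edits the mRNAs near it, and the edited share of a gene's reads is then a measure of its contact with the fusion. Transporter mRNAs are mostly translated at the endoplasmic reticulum, except for those of the mitochondrial carriers, which are made in the cytosol.

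The series covers 131 samples of 2 human lines, HCT116 from a colorectal carcinoma and HEK293T from embryonic kidney, among them HEK293T libraries named for XBP1 with rapamycin and Tg times, which are not analysed here. Induced HCT116 lines carried 1 P-body protein fused to APOBEC1, which edits C to U, or to ADAR2dd, the deaminase domain of ADAR2, which edits A to I. Their controls were APOBEC1-control (3 libraries), against APOBEC1-DDX6 with 3, and ADAR2dd-control (2 libraries), against LSM14A-ADAR2dd with 2 and the other fusions with 2 or 1. Dual-editor cells carried APOBEC1-DDX6 and LSM14A-ADAR2dd together, with APOBEC1 and ADAR2dd both unfused as control, in HCT116, in a further HCT116 set labelled illumina, and in HEK293T, with 2 libraries a group. HEK293T cells with LSM14A-TRIBE-ID (A to I) or DDX6-STAMP-ID (C to U) received rapamycin for 0, 15, 30 and 120 min, and also 60 min for LSM14A-TRIBE-ID. Further data were translation efficiency in wild-type and DDX6-KO cells of both lines, TPM of HCT116 lines before induction, and poly(A) tails from 1 nanopore library of dual-editor cells per line. The labels do not say how many clones a line was made from, and the fusion proteins were expressed on top of the cells' own copies. Nothing in them ties replicates to separate cultures, and p-values thus measure only the spread between these libraries, which may be technical.

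The 83 editing libraries held 6259071 to 13432692 reads. The HCT116 dual-editor libraries listed 7 of 12 HCT116 markers, at a summed 2679 to 2924 RPM (reads scaled to the library total) against 245 and 250 in the fused and 107 and 98.6 in the unfused HEK293T libraries, while KRT20, CEACAM5, CEACAM6, LGALS4 and CDX1 were not listed. The HEK293T libraries listed 9 of 12 HEK293T markers, at 1081 to 1104 RPM against 120 to 130 in HCT116, and CRABP1, TCEAL9 and BEX1 were not listed. VIM, LIN28B, IGF2BP1, NEFL, NEFM, SALL3 and CDH2 were listed in HEK293T only. Other markers of this list did not separate the lines in that direction. TCEAL9 was listed in HCT116 only, at 49.8 to 66.0 RPM. PAX2 was higher in HCT116 (23.7 to 30.7 against 11.4 to 14.4 RPM), and GATA2 overlapped (33.0 to 48.2 against 40.2 to 44.5 RPM). All 4 HCT116 markers listed in HEK293T (EPCAM, CDH1, KRT18 and KRT8) were higher in both fused than in both unfused libraries, and the part of this in the HEK293T results was not tested. Of 41 pairs of replicate libraries, 15 differed in their reads by no more than counting noise, and all 41 differed in edited reads by more. Libraries 2 and 3 of APOBEC1-DDX6 are 1 of those 15 pairs, and as the other pairs of that group differed in reads, they were also counted as 1 sample, which gave 64 in place of 66 solute carrier mRNAs edited more than in the APOBEC1 control. Each of the other 14 is the only pair of its group, so no other pair was there to compare with, and both libraries were kept. Among these 14 are the unfused dual editors of HCT116, of the illumina set and of HEK293T, and the fused dual editors of HCT116. The dual-editor tests and those between the lines thus rest in part on such pairs.

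With LSM14A-ADAR2dd the solute carrier mRNAs ranged widely in editing. The pooled A-to-I share of the 167 genes had a median of 3.52%, from 0 for SLC9A8 to 13.7% for the copper importer gene SLC31A1, and 60 of them reached 5%. Over the 9268 genes of any family that met the same read threshold the median was 3.89% and the highest share 33.6%, and 3297 reached 5%. In 154 of the 167 genes (92.2%) both fusion libraries lay above both control libraries, as in 90.5% of those 9268 genes and in 79.4% of the 11164 with 20 or more reads in each library. Because these libraries chose the genes, the values are descriptive.

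**Figure D1:**
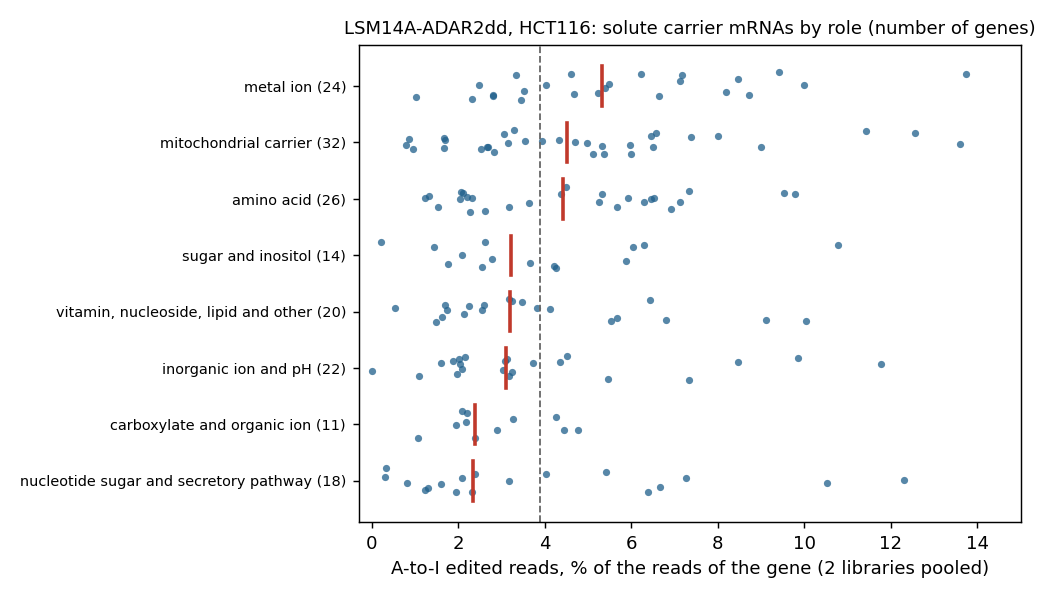
A-to-I edited share (x axis, percent of reads, 2 libraries pooled) of each solute carrier mRNA in LSM14A-ADAR2dd cells, by role (y axis, with the number of genes). Red bars are the medians of a role, from 2.35% for nucleotide sugar transporters to 5.31% for metal ion transporters, and the dashed line is the median of all genes with at least 100 reads, 3.89%.

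The metal ion transporters had the highest median share of the roles, 5.31%, and 13 of 24 reached 5%. SLC31A1 stood at 13.1% and 14.2% in the 2 fusion libraries against 0.722% and 0.313% in the 2 controls. SLC41A3, of a magnesium transporter family, had 11.5% and 9.16% against 0 and 0.326%. The zinc importer gene SLC39A6 and the zinc transporter gene SLC39A7, the 2 of this role with most reads, lay lower, at 3.74% and 3.04% and at 2.63% and 2.12%. In none of these 4 genes did fusion and control libraries overlap.

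Mitochondrial carriers followed with a median of 4.51%, and 14 of 32 reached 5%. SLC25A4, an ADP/ATP carrier gene, had 13.5% and 13.7% against no edited read in either control, whereas the related SLC25A5 had 0.764% and 0.791%, also against 0. SLC25A4, SLC25A5 and SLC25A6 have near-identical copies and pseudogenes with which they may share reads, so their shares are uncertain. SLC25A23, a calcium-regulated ATP-magnesium/phosphate carrier gene, reached 11.9% and 12.96% against 1.93% and 1.54%, a control share well above that of most solute carrier mRNAs. SLC25A3, which encodes the mitochondrial phosphate carrier, had 2.52% and 2.80% against 0.224% and 0.383%.

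Amino acid transporters had a median of 4.42%, and 12 of 26 reached 5%. The neighbouring genes SLC38A1 and SLC38A2, both for sodium-coupled neutral amino acid importers, lay far apart. SLC38A1 had 11.03% and 8.93% against 0.161% and 0.0822%, and SLC38A2 had 1.44% and 1.23% against 0 and 0.205%. SLC36A1, a lysosomal amino acid exporter gene, had 10.5% and 8.93%, and SLC3A2, the heavy chain shared by several exchangers, 2.59% and 1.97%.

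Transporters of inorganic ions had a median of 3.10%. The chloride/bicarbonate exchanger gene SLC4A2 had the most reads of this role and also its highest share, 11.9% and 11.7% against 0.0845% and 0.216%. SLC9A7, a sodium/proton exchanger of the trans-Golgi network, had 8.41% and 10.9% against a control of 2.05% and 2.12%. The phosphate importer gene SLC20A1 had 2.59% and 3.58%. Among sugar and inositol transporters (median 3.23%), the myo-inositol importer gene SLC5A3 had 10.7% and 10.8%, and the glucose transporter gene SLC2A1, of which 4398 reads were counted, had 0 and 0.335%. The vitamin, nucleoside and lipid group (median 3.21%) ran from SLC52A2, a riboflavin transporter gene, at 0.619% and 0.487%, to SLC27A6, a fatty acid transport protein gene, at 10.0% and 10.1%.

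The lowest medians were those of carboxylate and organic ion transporters, 2.38%, and of nucleotide sugar transporters, 2.35%. No carboxylate or organic ion transporter reached 5%. The monocarboxylate transporter gene SLC16A1 had 3.02% and 2.82% against 0 and 0.0339%, and the lactate exporter gene SLC16A3 had 0.957% and 1.13%. In SLC16A7, another monocarboxylate transporter gene, fusion and control libraries overlapped, with 1.69% and 6.29% against 1.75% and 1.06%. The nucleotide sugar group had SLC35D1, a UDP-sugar transporter gene of the endoplasmic reticulum, highest, at 10.8% and 13.2%, and SLC35G1 lowest, at a pooled 0.306%.

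C-to-U editing by APOBEC1-DDX6 was measured in libraries that played no part in the choice of genes, and was tested. Each test compared the edited reads of a gene given its reads, for genes that had 20 or more reads in each library and 10 or more edited ones in total, and the threshold was an adjusted p of 0.05. Of the 167 genes 144 could be tested, 66 rose and 7 fell, where 52.1% of 8325 genes rose and 2.7% fell. A further test used the library-wide edited share as the baseline, which was 1.27% to 1.36% in the APOBEC1-DDX6 libraries and 0.309% to 0.315% in the controls, so that a gene above it gained more than the library as a whole. By this measure 8 solute carrier mRNAs lay above and 42 below, where 11.1% and 20.3% of all genes did, and the median log2 difference was -0.73 against -0.43 for all genes. Measured from the median gene in place of the library-wide share, 16 lay above and 28 below. No share over all genes was computed for this baseline, so these counts compare only with the 8 and 42.

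Among mRNAs with a share of at least 1%, the largest gains relative to library-wide editing were those of SLC17A5, SLC38A1 and SLC16A1. SLC17A5, the sialic acid exporter gene of lysosomes, had 1.86%, 2.23% and 2.68% edited reads in the 3 APOBEC1-DDX6 libraries, against 0, 0 and 0.118% in the controls, which is 1 edited read (adjusted p 0.00189). SLC38A1 had 2.23%, 3.62% and 3.08% against 0.0251%, 0.101% and 0.213% (log2 difference 2.63, SE 0.41, adjusted p 3.56e-06). SLC16A1 was highest in level, with 4.09%, 4.62% and 5.48% against 0, 0.163% and 0.426% (2.55, SE 0.40, adjusted p 4.2e-06). For A to I, SLC17A5 lay below library-wide editing in HCT116 dual-editor cells, in the illumina set and with LSM14A-TRIBE-ID at 120 min. The groups did not overlap in any of the 3 genes. As they were chosen as the largest gains in these libraries, this adds no separate support. SLC38A2 had a lower share, 0.950%, 0.794% and 0.844%, against no edited read among 30222 in the controls, at least 87.4-fold higher (adjusted p 2.99e-08).

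Other mRNAs went the other way and fell also against the plain control. The glucose transporter gene SLC2A6 fell from 0.938%, 1.99% and 2.21% to 0.576%, 0 and 0.325% (log2 -2.34, SE 0.75, adjusted p 0.00829). SLC22A17, which encodes a lipocalin receptor, fell from 1.81%, 2.24% and 3.09% to 1.02%, 0.414% and 0.606% (log2 -1.75, SE 0.55, adjusted p 0.00719). These falls rest on 6 and 15 edited reads in the fusion group.

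Among the roles the metal ion transporters were called most often for C-to-U editing: 16 of the 22 tested rose with APOBEC1-DDX6, against 3 of 10 carboxylate and organic ion transporters and 9 of 26 mitochondrial carriers. With APOBEC1-DDX6 52.1% of all genes tested rose. The counts for metal ion transporters were 14 of 20 in HCT116 dual-editor cells, 15 of 20 in the illumina set and 15 of 18 in HEK293T, where 50.7%, 49.1% and 67.6% of all genes rose. The difference between roles was not tested. Of 2 lists outside the family, 23 of 38 ATP-driven transporters (ABC and P-type pumps) and 21 of 38 other transport proteins such as MPC1 and XPR1 rose with APOBEC1-DDX6.

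In cells with both editors nearly every testable solute carrier mRNA gained A-to-I edits. In HCT116, 150 of 160 rose and 0 fell, in the illumina set 140 of 155 and 0, and in HEK293T 130 of 138 and 0, where 94.8%, 92.2% and 94.5% of all genes rose and 0.0534%, 0.0571% and 0.0107% fell. C-to-U edits, counted in the same libraries, rose in 55 of 132, 57 of 123 and 80 of 127, where 50.7%, 49.1% and 67.6% of all genes did. C-to-U edits fell in 1, 0 and 0, where 0.582%, 0.209% and 0.0957% of all genes fell, and the 1 was SLC25A3 in HCT116, described further on. Without either fused library of the illumina set the C-to-U count was 0, and without the first or the second of HEK293T it was 46 or 53.

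Relative to library-wide editing the family split in both directions. For A to I, 15 solute carrier mRNAs lay above and 23 below in HCT116 (all genes 11.8% and 10.2%), 15 and 17 in the illumina set (11.2% and 11.8%), and 11 and 8 in HEK293T (8.73% and 6.05%). For C to U the numbers were 8 and 26 in HCT116 (11.2% and 13.1%), 6 and 17 in the illumina set (11.2% and 11.8%), and 9 and 6 in HEK293T (6.15% and 4.75%). None of these counts held without either fused library, and the cause of this was not tested. Such a fit sets 1 library against 2 and assumes that it varies like the others, as does a fit without a control library. Leaving out a control library moved some counts by over 1.5 times: in HCT116 the A-to-I counts became 9 above (without control 2) and 12 or 11 below (without control 1 or 2), and the C-to-U count below became 15 (without control 1). In the illumina set 11 lay below for A to I and for C to U without control 2, and 10 above for C to U without either control. In HEK293T 5 lay below for A to I without control 1, and 4 above for C to U without control 2. Measured from the median gene, C to U gave 13 above and 17 below in HCT116 and 10 and 11 in the illumina set, again without a share over all genes. The 9 and 6 of HEK293T C to U were called by edgeR only, and DESeq2 and limma called 0.

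The illumina set has its own controls and so gives a separate reading of the same construct in HCT116. Of the 15 A-to-I genes above in each set, 10 were shared (66.7% of either list): SLC16A1, SLC16A3, SLC25A1, SLC25A39, SLC25A6, SLC38A1, SLC39A14, SLC39A7, SLC4A2 and SLC7A6. Of the 23 and 17 below, 7 were shared (30.4% and 41.2%). For C to U the 8 and 6 above shared SLC16A1, SLC38A2 and SLC39A6 (37.5% and 50.0%), and the 26 and 17 below shared 7 (26.9% and 41.2%). Over all genes called in the 2 sets the shared ones were 65.8% and 74.2% of those above and 46.0% and 42.6% of those below for A to I, and 68.4% and 71.5%, and 36.0% and 42.2%, for C to U. Across solute carrier mRNAs the edited shares of the 2 sets had a rank correlation of 0.88 for A to I (166 genes) and 0.84 for C to U (164 genes), against 0.87 and 0.80 over all genes with 100 reads. A-to-I and C-to-U shares of the same HCT116 dual-editor libraries were only weakly related (0.27, 166 genes, all genes 0.30). In HEK293T dual-editor libraries the same rank correlation was 0.54 (154 genes, all genes 0.45).

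SLC16A1 and SLC38A2 were above library-wide editing more often than any other member, each in 7 of 8 comparisons (the 6 of the dual editors, APOBEC1-DDX6, and LSM14A-TRIBE-ID at 120 min, some of which share libraries). SLC38A1 followed with 6. At the other end SLC22A23, an orphan member of the organic ion transporter family, was below in 5. Above in 0 comparisons were 123 of the 167 genes, and below in 0 were 85. Both counts include genes not tested in every comparison, such as SLC25A51 and SLC29A3, each tested in only 1. They are given without a count over all genes. SLC16A1 lies at chr1:112911847-112956196, SLC38A1 at chr12:46183063-46269043 and its neighbour SLC38A2 at chr12:46358188-46372773 (GRCh38).

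For A to I, SLC38A2 had 2.91% and 2.80% in HCT116 dual-editor cells with no edited read in the controls, at least 108-fold higher if the whole control group is set to 3 edited reads, the limit compatible with seeing 0 (adjusted p relative to library-wide editing 0.000519). In HEK293T it had 3.20% and 2.42% against 0, at least 41.1-fold higher (adjusted p 0.0162). In the illumina set it had 2.28% and 1.87% against 0.0339% and 0.0879% and was not called. Its C-to-U shares were 0.855% and 0.220% in HCT116, 1.05% and 1.10% in the illumina set and 3.49% and 2.86% in HEK293T, against 0, 0, and 0.136% and 0.0932%. Fewer reads of SLC38A2 were counted with APOBEC1-DDX6 (2252 to 2843) than with its control (9876 to 10454), and its part in the edited share was not tested.

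SLC16A1 kept a similar A-to-I share in the 3 dual-editor sets, 2.95% and 2.83% in HCT116, 3.12% and 2.74% in the illumina set and 3.52% and 2.97% in HEK293T, against at most 0.0405% in any control. Its C-to-U share was 2.90% and 3.47% in HCT116 (controls 0.144% and 0.0973%) and 3.21% and 3.93% in the illumina set (controls 0). In HEK293T both groups were higher, 7.30% and 5.68% against 1.20% and 1.32%, and the gain relative to the library was not called (log2 difference 0.23, SE 0.21, adjusted p 0.528). SLC38A1 reached 9.33% and 9.80% A-to-I edited reads in HCT116, 10.2% and 8.71% in the illumina set and 11.1% and 8.17% in HEK293T, with controls of 0.049% to 0.227%.

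**Figure D2:**
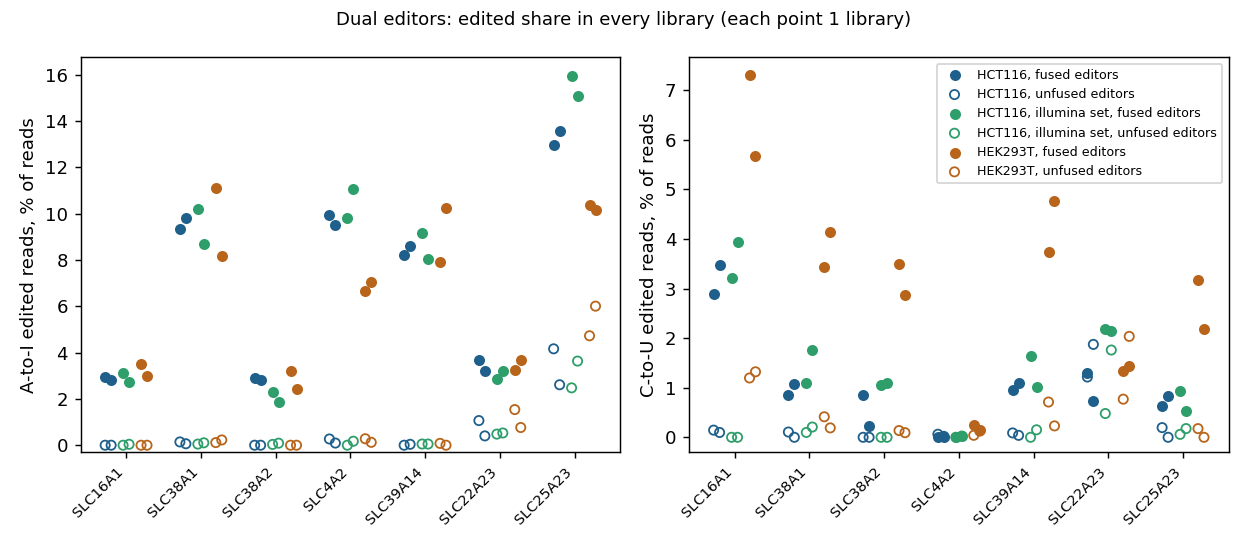
A-to-I (left) and C-to-U (right) edited share (y axis, percent of reads) of 7 solute carrier mRNAs in dual-editor cells, each point 1 library, filled for the fused and open for the unfused editors. SLC38A1 stays between 8.17% and 11.1% for A to I in all fused libraries, while SLC25A23 has the highest open points, up to 6.004% in HEK293T.

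Other large A-to-I gains relative to the library were those of SLC3A2 in HCT116 (2.72% and 2.66% against 0, at least 56.4-fold, adjusted p 0.00694), SLC25A6 in HCT116 (4.78% and 6.01% against 0, at least 92.0-fold, adjusted p 0.00169) and SLC25A5 in HEK293T (2.97% and 3.24% against 0, at least 129-fold, adjusted p 0.000244). SLC25A5 and SLC25A6 are the carriers whose reads may be shared with copies. In the illumina set SLC25A4 had 17.2% and 15.97% against 0, at least 89.0-fold higher (adjusted p 0.0016), with the same reservation. SLC39A7 had 1.76% and 1.58% against 0 there, at least 26.1-fold higher (adjusted p 0.0462).

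For A to I, SLC25A23 showed the opposite pattern at a high level. For C to U, SLC25A23 lay above library-wide editing in the HEK293T dual-editor libraries, a call made by edgeR only. In HEK293T its A-to-I share was 10.4% and 10.2% with the fused editors and 4.72% and 6.004% with the unfused ones. It rose against the control (log2 0.94, SE 0.17, adjusted p 7.91e-05) and lay below library-wide editing (log2 -2.82, SE 0.20, adjusted p 1.51e-07). Below it in HEK293T were also SLC33A1, the acetyl-CoA transporter gene, with 6.88% and 4.79% against 2.78% and 2.62%, and SLC22A23 with 3.24% and 3.70% against 1.54% and 0.763%. In HCT116 the lowest were SLC4A11, SLC16A7 and SLC35F5. SLC16A7 had 0.865% and 1.83% with the fused editors against 0.902% and 1.67% with the unfused ones, groups that overlap (relative log2 -4.08, SE 0.62, adjusted p 7.53e-05).

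For C to U the largest gains in HCT116 beside SLC16A1 were those of SLC25A46, an outer mitochondrial membrane protein of the carrier family, with 3.82% and 4.64% against 0.192% and 0.186% (relative log2 2.27, SE 0.57, adjusted p 0.0175), and of the sodium-potassium-chloride cotransporter gene SLC12A2, with 2.20% and 1.89% against 0.114% and 0.054%, which are 3 edited reads (adjusted p 0.0208). SLC17A5 led with them in the illumina set, with 2.45% and 2.84% against 0 (at least 24.2-fold, adjusted p 0.0049). Genes below the library were SLC66A1, a lysosomal cationic amino acid exporter gene, with 0.508% and 0.655% against 0.993% and 1.72% in HCT116 (adjusted p 0.00634), and SLC46A1, the proton-coupled folate transporter gene, with 0.996% and 0.683% against 1.57% and 1.12% in HEK293T (adjusted p 0.0113).

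The cell lines were compared directly by testing whether the gain relative to the library differed between HEK293T and HCT116. For A to I 6 solute carrier mRNAs differed, and for C to U 10. Over all genes 0.785% gained more in HEK293T and 1.44% less for A to I, and 1.75% and 4.25% for C to U. The phosphate carrier gene SLC25A3 had the largest fitted C-to-U difference. In HCT116 its C-to-U share was 0 and 0.0362% with the fused editors and 0.787% and 0.748% with the unfused ones, and in HEK293T 1.52% and 1.97% against 0.103% and 0.076% (log2 difference 9.55, SE 0.73, adjusted p 7.18e-18). The HCT116 controls of the illumina set had 0.0183% and 0.0574% and those of APOBEC1-DDX6 0.0325%, 0.0166% and 0.0662%, so that the 2 unfused HCT116 dual libraries stood above the other HCT116 controls in this gene.

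SLC25A3 also gained more A-to-I edits in HEK293T, 6.97% and 6.21% against 0.0258% and 0.101%, than in HCT116, 2.77% and 2.55% against 0.0605% and 0.267% (log2 difference 3.12, SE 0.69, adjusted p 0.00127). SLC35B4, a UDP-sugar transporter gene of the secretory pathway, gained more in HEK293T by both editors. Its A-to-I share was 7.63% and 10.6% against 0.207% and 0.357% in HEK293T and 5.89% and 4.64% against 0.581% and 0.931% in HCT116. SLC12A2 gained less C-to-U editing in HEK293T, where its fused share of 3.02% and 3.66% stood close to an unfused share of 2.18% and 2.53% (log2 difference -3.99, SE 0.83, adjusted p 0.000502). SLC25A3 lost its A-to-I call without control library 2 of HCT116 (adjusted p 0.609) or control library 1 of HEK293T (0.0589), and kept its C-to-U call without any 1 library, as did SLC12A2. Leaving out 1 library in turn gave 2 to 6 calls for A to I and 5 to 9 for C to U. The A-to-I count fell to 2 without control library 2 of HCT116, control library 1 of HEK293T or fused library 2 of HEK293T, and to 3 without control library 1 of HCT116, fused library 1 of HCT116 or control library 2 of HEK293T, and the C-to-U count fell to 5 without control library 2 of HCT116 and to 6 without fused library 1 of HEK293T.

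**Figure D3:**
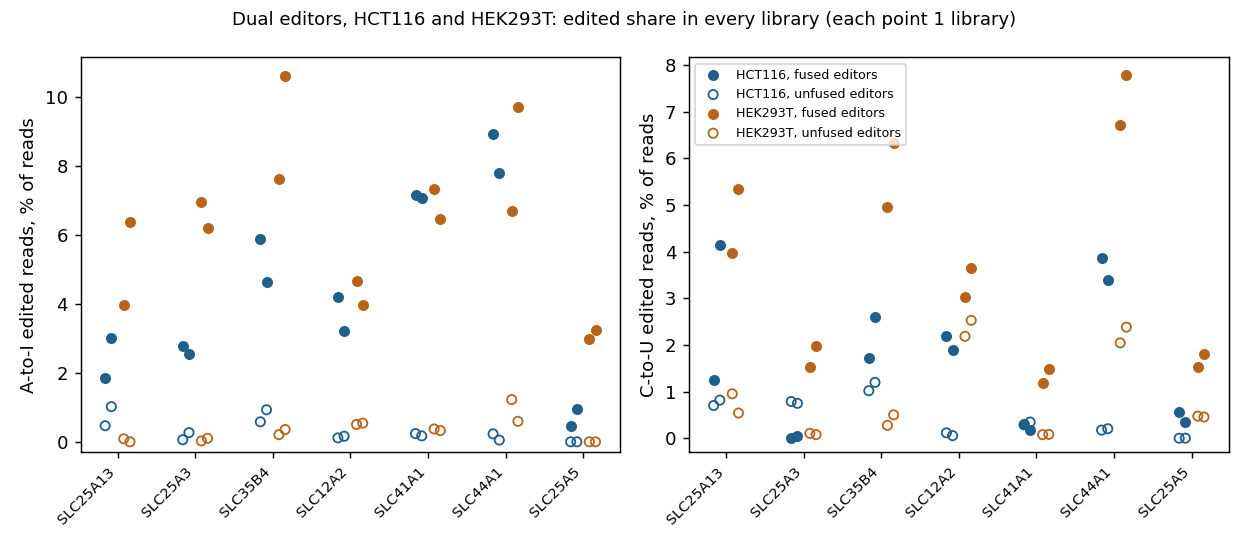
A-to-I (left) and C-to-U (right) edited share (y axis, percent of reads) of 7 solute carrier mRNAs that differed between the lines, each point 1 library of HCT116 or HEK293T, filled for fused and open for unfused editors. For C to U the open HCT116 points of SLC25A3 (0.787% and 0.748%) lie above its filled ones (0 and 0.0362%), the reverse of HEK293T.

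After rapamycin recruited the editor to LSM14A, A-to-I edits of solute carrier mRNAs accumulated over 2 h. Over the 154 members listed in that table the median share was 0.527% at 0 min, 0.987% at 15 min, 1.71% at 30 min, 2.86% at 60 min and 3.97% at 120 min, and 80 of them (51.9%) rose at every step. Over 8546 genes the medians were 0.472%, 0.915%, 1.60%, 2.67% and 3.89%, and 51.9% rose at every step. Compared with 0 min, 17 of 99 tested were higher at 15 min, 61 of 111 at 30 min, 99 of 120 at 60 min and 102 of 121 at 120 min, where 16.9%, 56.8%, 79.6% and 86.4% of all genes were. These comparisons share the 0 min libraries. Without the first library of the later time the counts were 4 at 15 min, 29 at 30 min and 65 at 60 min, and without the second 38 at 30 min.

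At 120 min 21 solute carrier mRNAs lay above and 13 below library-wide editing (all genes 18.4% and 8.57%). The library-wide share itself was 6.15% and 5.17%. SLC16A1 had the largest gain, from no edited read among 14929 at 0 min to 5.07% and 4.10%, at least 227-fold higher (adjusted p 1.02e-05). The polyamine transporter gene SLC18B1 went from 0 to 4.54% and 3.89%, at least 23.4-fold higher (adjusted p 0.00901), and SLC25A5 from 0 to 1.49% and 0.885% (adjusted p 0.000706), its edits appearing only from 60 min on. SLC25A29, a basic amino acid carrier gene of mitochondria, had 4.35% and 0.606% at 120 min against 3.55% and 1.71% at 0 min, groups that overlap. SLC2A13 and SLC35A3 were the other genes furthest below, and each of these 3 rests on at most 6 edited reads at 120 min. SLC18B1 lost its call without either 120 min library (adjusted p 0.103 and 0.0937), SLC25A5 without the first (0.052), SLC2A13 without either (0.309 and 0.142), and SLC25A29 and SLC35A3 without either of them or the first 0 min library. Without the first library at 120 min 5 lay above and 1 below, and without the second 7 and 1. With the replicate number as a block, 8 lay below in place of 13.

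**Figure D4:**
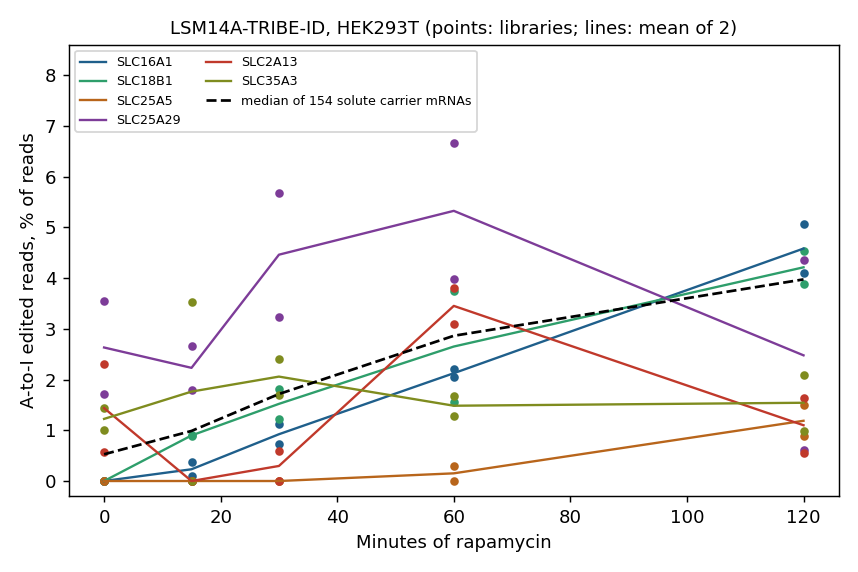
A-to-I edited share (y axis, percent of reads) against minutes of rapamycin (x axis) in LSM14A-TRIBE-ID cells for 6 solute carrier mRNAs, with points for libraries, lines for the mean of 2 and the dashed line for the median of 154 members. SLC16A1 and SLC18B1 start at 0 and end above 4% on average, while SLC25A29 ends at a mean of 2.48%, near its start of 2.63%.

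DDX6-STAMP-ID gave no change called by edgeR. Of 102, 104 and 104 members tested at 15, 30 and 120 min, edgeR called 0, with 3, 5 and 5 at an unadjusted p under 0.05. DESeq2 and limma called 0 higher, and falls were not counted for them. Over all genes edgeR called 0.0159% higher at 15 min, 0.0321% at 30 min and 0.0% at 120 min.

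Other fusions in HCT116 edited solute carrier mRNAs to very different extents, and each was compared with the shared control of its editor. 4E-T-ADAR2dd raised 137 of 150 tested (all genes 87.9%) and PATL1-ADAR2dd 66 of 111 (60.3%). ADAR2dd-DDX6 raised 45 of 92 (46.2%) and DDX6-ADAR2dd 42 of 94 (49.2%). The remaining 5 raised 14 of 71 (ADAR2dd-LSM14A, 21.9%), 8 of 73 (ADAR2dd-EDC3, 12.2%), 3 of 67 (EDC3-ADAR2dd, 5.01%), 2 of 64 (ADAR2dd-4E-T, 4.84%) and 0 of 53 (ADAR2dd-PATL1, 1.44%). LSM14A-APOBEC1 raised 34 of 135 (27.9%), APOBEC1-PATL1 30 of 129 (23.5%) and 4E-T-APOBEC1 23 of 138 (18.8%), and the other 6 replicated APOBEC1 fusions raised 9 (APOBEC1-4E-T, 5.05%), 3 (DDX6-APOBEC1, 1.69%, and EDC4-APOBEC1, 1.07%), 2 (EDC3-APOBEC1, 0.859%, and DCP2-APOBEC1, 0.927%) and 1 (PATL1-APOBEC1, 0.51%). SLC31A1 had 7.78% and 6.79% with 4E-T-ADAR2dd against 13.1% and 14.2% with LSM14A-ADAR2dd, and SLC4A2 had 1.93% and 2.53%. In fusions with 1 library, which allow no test, 18 to 70 of the members lay above all 3 controls, the most with APOBEC-EDC3 (41.9%, all genes 44.2%) and the fewest with APOBEC1-CNOT10 (10.8%, all genes 18.2%). APOBEC-DCP2 gave 31.7% (38.9%), APOBEC1-EDC4 27.5% (36.2%), APOBEC1-LSM14A 19.8% (23.2%), CNOT10-APOBEC1 18.1% (16.6%) and CNOT1-R-APOBEC1 13.9% (14.1%). For these last 2 the deposited tables carry each other's names, and the samples' own labels were followed.

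Translation efficiency, the ratio of polysomal to total mRNA on a log2 scale, was given by the authors as 1 value per genotype and line, so its differences have no replicate check. In HCT116 61 of 167 solute carrier mRNAs were higher in DDX6-KO by at least 0.5 and 0 lower, where 37.0% and 0.658% of 9264 genes were. The median gene itself was higher by 0.34, and the members by a median of 0.27. Relative to the median gene of the line, 24 were higher and 5 lower (all genes 15.5% and 6.92%). In HEK293T 14 were higher and 1 lower (8.7% and 2.08% of 9251 genes), and relative to the median gene 7 and 8 (4.64% and 4.03%).

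The largest HCT116 differences were those of SLC39A14, a zinc and iron importer gene, from -1.26 in wild type to 0.43 in DDX6-KO (1.69), SLC35F2, from -0.51 to 0.91 (1.42), and SLC17A5, from -0.64 to 0.70 (1.34). Of the metal ion transporters 15 of 24 were higher by at least 0.5, with a median of 0.56, and of the amino acid transporters 10 of 26. The smallest were SLC25A26, the mitochondrial carrier gene for S-adenosylmethionine, at -0.30, SLC9A5 at -0.21 and SLC8B1, a mitochondrial sodium/calcium exchanger gene, at -0.21. In HEK293T the zinc importer gene SLC39A6 led with 0.79, followed by the cationic amino acid transporter gene SLC7A2 with 0.77 and SLC25A24 with 0.63, and SLC27A1 was lowest with -0.50, near SLC4A3 and SLC6A17 at -0.48 each.

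In both lines 11 members (6.59%) were higher by at least 0.5, as were 4.92% of 9250 genes: SLC25A24, SLC25A36, SLC25A46, SLC30A9, SLC35B3, SLC38A1, SLC38A2, SLC39A6, SLC41A2, SLC44A1 and SLC7A2. SLC38A2 went from -3.01 to -1.68 in HCT116 and from 0.50 to 1.06 in HEK293T, and SLC38A1 from -1.95 to -0.96 and from 1.40 to 2.02. Across the 167 genes the differences of the 2 lines had a rank correlation of 0.58, against 0.33 over 9250 genes. In HCT116 dual-editor cells the C-to-U share of the members had a rank correlation of -0.54 with wild-type translation efficiency (166 genes, all genes -0.34) and of -0.43 with uninduced TPM (all genes -0.30), and the A-to-I share of -0.22 and 0.06. In HEK293T the A-to-I share had one of 0.13 with wild-type translation efficiency (155 genes, all genes 0.11). These correlations are descriptions across genes, which are not independent.

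**Figure D5:**
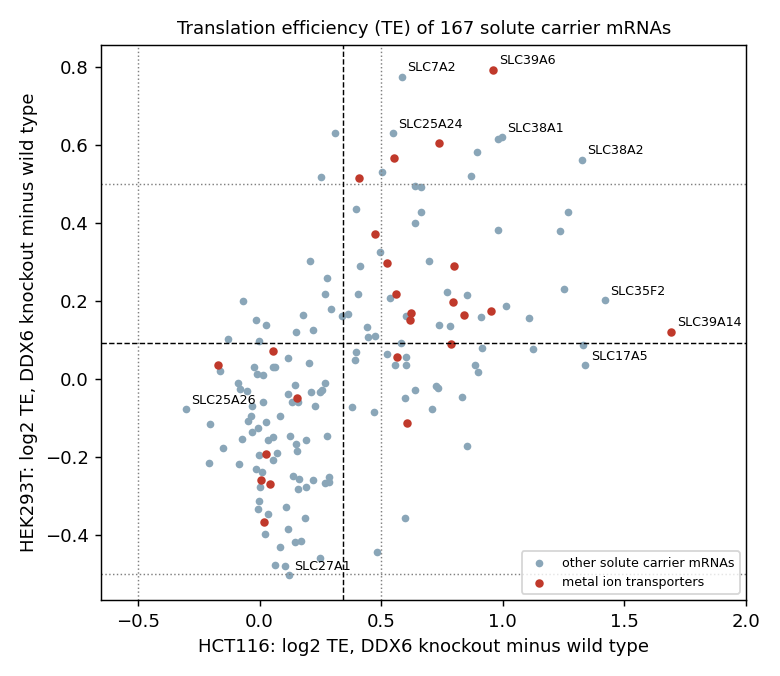
Difference in log2 translation efficiency between DDX6-KO and wild type in HCT116 (x axis) and HEK293T (y axis) for the 167 solute carrier mRNAs, metal ion transporters in red. Dotted lines mark 0.5 and -0.5 and dashed lines the median of all genes, 0.34 and 0.09, and 11 genes lie past 0.5 on both axes.

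Poly(A) tails were compared between nanopore reads edited by both editors and the other reads of the same gene, in 1 library per line without a replicate check. In HCT116 16 of the 18 members listed had at least 10 reads of each class, 12 had edited reads with a median tail shorter by at least 10 nt and 3 longer, where 77.2% and 12.7% of 1028 genes did. The median difference was -34.1 nt, against -37.1 nt for all genes. SLC25A46 had the largest difference, 74.96 nt over 15 edited reads against 186 nt over 47 others (-111 nt), before SLC18B1 (-82.2 nt) and the ascorbate transporter gene SLC23A2 (-62.5 nt). Longer tails were listed for SLC44A1, a choline transporter gene (200 nt over 12 reads against 168 nt over 13, +32.6 nt), SLC31A1 (+17.4 nt) and SLC12A2 (+14.8 nt). In HEK293T 5 members were listed and the 3 with enough reads were shorter (82.5% of 527 genes were, and 6.07% longer): SLC25A4 by -43.8 nt, SLC25A3 by -40.4 nt and SLC25A5 by -30.0 nt.

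Before induction the 167 mRNAs had mean levels of 3.95 TPM (SLC24A1) to 897 TPM (SLC25A5), with a median of 23.9 TPM, and SLC38A2 (689 TPM) and the leucine transporter gene SLC7A5 (449 TPM) followed SLC25A5. Lines of the study differed already at this stage. In ADAR2dd-control against APOBEC1-control 81 were higher and 38 lower (all genes 39.2% and 21.2%), 5 of them by 2-fold or more on the log2(TPM + 1) scale. In APOBEC1-DDX6 against APOBEC1-control 51 were higher and 44 lower (23.6% and 20.2%), 2 of them by 2-fold or more. In cultures of 1 cell type fewer expressing cells and less RNA per cell cannot be told apart in such levels.

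SLC38A2 stood at 1125, 1061 and 1059 TPM in APOBEC1-control and at 417, 416 and 424 TPM in APOBEC1-DDX6 (log2 -1.36, SE 0.02, adjusted p 1.71e-09). The glutamate transporter genes SLC1A1 and SLC1A3 moved oppositely, SLC1A1 from 26.4, 25.1 and 25.9 to 9.69, 9.85 and 11.7 TPM (log2 -1.24, SE 0.08, adjusted p 5.27e-06) and SLC1A3 from 11.2, 11.7 and 11.6 to 21.6, 22.3 and 22.3 TPM (log2 0.88, SE 0.05, adjusted p 1.19e-06). The zinc transporter gene SLC30A6 (0.98) and the cystine/glutamate exchanger gene SLC7A11 (0.90) were the other largest rises, and SLC45A1 (-0.98) was the third largest fall. In ADAR2dd-control the oxoglutarate carrier gene SLC25A11 rose most, from 34.2, 38.1 and 37.1 to 82.0 and 80.0 TPM (log2 1.13, SE 0.04, adjusted p 5.42e-08). SLC6A16 fell most, from 30.1, 30.6 and 29.3 to 9.04 and 8.87 TPM (log2 -1.64, SE 0.06, adjusted p 3.99e-08), with SLC5A3 (-1.10) and SLC7A8 (-1.09) next.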

How the data were processed

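The labels' protocols describe TRIzol extraction, an mRNA kit for short reads and a cDNA kit for the nanopore reads. Per the submitters' processing notes the genome was hg38, with the tools FastQC (version 0.11.9), cutadapt (1.18), STAR (2.7.9a) and featureCounts (2.0.1). For the callers of edited sites and of tails no source names a tool. The authors deposited, per gene and library, counts of reads and edited reads with their fraction, and further TPM, log2 translation efficiency (a single value for each genotype in each line; how replicates entered it is not stated) and median tail lengths in nt with read counts. Translation efficiency of exactly 0 was treated as not measured. Whether DDX6 RNA was lost in DDX6-KO was not checked, since that table holds no RNA level.

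For editing, the quasi-likelihood test of edgeR 4.0.16 was applied to edited reads with log(reads), or log(reads times the library-wide edited share), as offset. Uninduced log2(TPM + 1) was tested with limma 3.58.1 for genes of mean TPM of at least 1. P-values were two-sided with Benjamini and Hochberg adjustment over all genes tested. DESeq2 1.42.0 was an alternative. The tests were checked on simulated data. Named genes were, per role, the 2 of most reads and the 2 of highest LSM14A-ADAR2dd share, and, per comparison, the 3 largest changes each way that passed at a share of at least 1%; for TPM, translation efficiency and tails they were the 3 largest each way. Members and lists were chosen with earlier results of these data known. Numbers in the labels pair the LSM14A-TRIBE-ID libraries, whose reads varied together by number (correlations 0.726 to 0.804), and elsewhere correlations were -0.0415 to 0.0245. Gene positions come from RefSeq on GRCh38.p14 (165 of 167 matched). Folds against 0 cover counting error only. Part of the genes selected this way are printed, and a gene among them is not reported here.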

Additional observations from a re-analysis of the deposited data

Results flagged for a closer look

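In dual-editor cells the gain in editing relative to the library differed between HEK293T and HCT116, by a direct test of the difference in edgeR, for 11 named results in 9 solute carrier mRNAs. For A to I, SLC25A13, an aspartate/glutamate carrier gene of mitochondria, gained more in HEK293T (fitted log2 value 5.50, adjusted p 0.0052). It had 3.97% and 6.37% against 0.0865% and 0 in HEK293T, and 1.86% and 3.01% against 0.467% and 1.02% in HCT116. The fitted value is no measure of size, because the HEK293T controls were at or near 0. SLC25A3 gained more by 3.12 and SLC35B4 by 2.62 (adjusted p 0.00127 and 0.0458). SLC25A4 gained less by a log2 difference of -2.79 (adjusted p 0.032), with 8.68% and 6.49% against 0.535% and 1.83% in HEK293T and 13.3% and 11.7% against 0 and 0.394% in HCT116, and its reads may be shared with copies. SLC35F2 gained less (fitted value -8.10, adjusted p 0.0336), a value that is no measure of size because its HCT116 controls were at 0.

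For C to U, SLC25A3 gained more in HEK293T (fitted value 9.55), SLC41A1, a magnesium transporter gene, by 4.51 and SLC35B4 by 2.96 (adjusted p 7.18e-18, 0.0018 and 0.00341). The value for SLC25A3 is no measure of size, because its fused HCT116 libraries were at or near 0. Its unfused HCT116 dual libraries also stood above the other HCT116 controls, as described above. SLC41A1 had 1.17% and 1.48% against 0.0746% and 0.0814% in HEK293T, and 0.304% and 0.167% against 0.287% and 0.346% in HCT116, where the groups overlapped. SLC35B4 had 4.96% and 6.34% against 0.276% and 0.5%, and 1.72% and 2.61% against 1.02% and 1.20%. SLC12A2 gained less by -3.99 and SLC44A1 by -2.46 (adjusted p 0.000502 and 0.00951). SLC44A1 was higher in both HEK293T groups, 6.71% and 7.78% against 2.04% and 2.38%, than in HCT116, 3.87% and 3.39% against 0.173% and 0.203%. SLC25A5 gained less (fitted value -7.90, adjusted p 0.0119) with HCT116 controls at 0. SLC25A13, SLC25A4, SLC35B4 (A to I and C to U), SLC35F2, SLC25A5 and SLC44A1 each lost the call without at least 1 of the 8 libraries. The causes were not tested.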

How the results depend on the processing

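Of 83 values of named genes, none reversed under any setting run. Of the recomputed values 495 stayed the same and 189 lost their call, 126 of these without 1 library. The 495 include 12 centred translation efficiency values, which had no call and kept their sign. Replicate numbers pair only the LSM14A-TRIBE-ID libraries; there the replicate block left 8 below at 120 min in place of 13 and changed no other count by over 1.5 times. Elsewhere the block gave 7 above and 5 below (HCT116 A to I), 8 below (illumina A to I) and 2 differences between lines for A to I. With DESeq2 the counts above were 7 (HCT116 A to I), 5 (HEK293T A to I), 1 and 0 (HCT116 and HEK293T C to U) and 9 (120 min). With DESeq2 those below were 4 (HEK293T A to I), 4, 11 and 0 (C to U in HCT116, illumina and HEK293T) and 6 (120 min). DESeq2 called 28, 30 and 42 C-to-U rises in those sets, and 2, 26 and 60 at 15, 30 and 60 min. limma gave 4, 9 and 5 above for A to I in HCT116, illumina and HEK293T, 43 and 32 below in the first 2, 3 above for C to U in HCT116, 0 and 0 in HEK293T, 10 above at 120 min and 0 at 15 min. DESeq2 and limma each gave 1 A-to-I difference between lines, and limma 4 for C to U. The median number over other fusions, 14 for ADAR2dd and 3 for APOBEC1, became 4 and 1 with either tool and 6 and 5 with no filter. With no filter C to U gave 5 above and 10 below in HCT116, 11 below in illumina and 10 below in HEK293T. From the median gene, APOBEC1-DDX6 gave 16 above, and C to U 13 and 17 in HCT116 and 10 and 11 in illumina.

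Leaving out 1 library gave 0 to 11 above and 0 to 12 below for A to I in HCT116, 0 to 13 and 0 to 13 in illumina, and 0 to 8 and 0 to 7 in HEK293T. For C to U it gave 0 to 10 and 0 to 19, 0 to 10 and 0 to 15, and 0 to 7 and 0 to 7, with 0 to 61 rises in illumina and 46 to 71 in HEK293T. It gave 4 to 18, 29 to 54 and 65 to 94 rises at 15, 30 and 60 min, 5 to 20 above and 1 to 10 below at 120 min, medians of 7 to 13 and 1 to 2 for other fusions, and 2 to 6 and 5 to 9 differences between lines. A lone library was assumed to vary like the others. A translation efficiency step of 1 left 11 rises in HCT116 and 0 rises and 0 falls in HEK293T; centring left 24 and 5, and 7 and 8. With 20 reads a class 0 HCT116 tails were longer and 6 shorter, and with 20 nt 1 was longer. Counts of the uninduced lines stayed within 1.5 times under each setting run. The causes were not tested.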

Other observations

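ATP-driven transporters, a list outside the solute carrier names, were edited at a similar rate by call: 18 of 36 tested rose for C to U in HCT116 dual-editor cells, 17 of 35 in the illumina set and 20 of 33 in HEK293T, where 50.7%, 49.1% and 67.6% of all genes did. Of other transport proteins 23 of 32, 20 of 36 and 31 of 44 rose. In DDX6-KO HCT116 cells, translation efficiency was higher by at least 0.5 for 17 of 38 ATP-driven transporters and 15 of 44 other transport proteins, where 37.0% of all genes were.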
